A study of Mus musculus with 6 samples.

Results

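Mitochondrial ribosomal protein genes were examined in N1E115 cells, a mouse neuroblastoma line, after 3 days of culture in 4% oxygen or in 20% oxygen. The genes were taken by name: a row of the deposited table belonged if its symbol began with Mrpl or Mrps and a number, and 76 of 23358 rows did. Of these, 47 were large subunit genes (Mrpl) and 29 were small subunit genes (Mrps), and all 76 were abundant enough to be tested. The 4% oxygen group had 3 libraries and the 20% oxygen group had 3, numbered 1 to 3 in each. The labels give NOS1+ (neuronal nitric oxide synthase) cells in both groups and name no other genotype or agent. A single established line was used, and separate cultures are not stated for the 3 libraries at either oxygen level, so that p-values measure only how these libraries vary, and that variation may be technical.

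Mitochondria carry ribosomes of their own, which make the proteins of the respiratory chain that are encoded by mitochondrial DNA. Their RNA parts are made inside the organelle, whereas their proteins are encoded in the nucleus, made in the cytosol and imported. One class of these proteins has counterparts in bacterial ribosomes, and another is specific to mitochondria. The large subunit joins amino acids into the chain, and the small subunit binds the messenger RNA and decodes it. Respiration consumes oxygen, and low oxygen is known to shift many cells towards glycolysis. The labels state no question about these genes.

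Promoter sequences from RefSeq on GRCm38.p6, which run from 250 bases before to 50 bases after the gene start, were found for 67 of the 76 genes. They are shown for Mrpl35, which had the smallest p of the large subunit genes, for Mrps18c, which had the smallest p of the small subunit genes, for Mrps12, which had the highest positive estimate, and for Mrps11, whose window also holds the start of the neighbouring Mrpl46. Each sequence reads 5′ to 3′ on the strand of its gene, and capitals mark the motifs that were searched. The windows are chr6:71823735-71824034 on the minus strand for Mrpl35, chr5:100798509-100798808 on the plus strand for Mrps18c, chr7:28741772-28742071 on the minus strand for Mrps12 and chr7:78782881-78783180 on the plus strand for Mrps11.
Mrpl35: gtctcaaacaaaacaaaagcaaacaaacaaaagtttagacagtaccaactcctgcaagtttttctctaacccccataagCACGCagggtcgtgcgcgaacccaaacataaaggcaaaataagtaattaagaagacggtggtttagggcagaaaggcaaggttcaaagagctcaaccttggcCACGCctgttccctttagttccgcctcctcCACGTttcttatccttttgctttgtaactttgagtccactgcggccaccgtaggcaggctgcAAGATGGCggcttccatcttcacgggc
Mrps18c: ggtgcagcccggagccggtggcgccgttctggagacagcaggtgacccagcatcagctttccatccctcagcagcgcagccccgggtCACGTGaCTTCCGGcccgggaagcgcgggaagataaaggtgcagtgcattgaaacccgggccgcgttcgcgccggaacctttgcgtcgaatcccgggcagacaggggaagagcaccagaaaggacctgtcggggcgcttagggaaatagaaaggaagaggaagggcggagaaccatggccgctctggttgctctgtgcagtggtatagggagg
Mrps12: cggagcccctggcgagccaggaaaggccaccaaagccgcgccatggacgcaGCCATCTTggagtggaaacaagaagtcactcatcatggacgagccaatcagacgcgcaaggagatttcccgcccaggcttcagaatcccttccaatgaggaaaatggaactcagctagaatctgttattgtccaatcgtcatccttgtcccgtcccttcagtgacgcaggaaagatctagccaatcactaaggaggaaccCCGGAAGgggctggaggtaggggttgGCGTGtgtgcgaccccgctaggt
Mrps11: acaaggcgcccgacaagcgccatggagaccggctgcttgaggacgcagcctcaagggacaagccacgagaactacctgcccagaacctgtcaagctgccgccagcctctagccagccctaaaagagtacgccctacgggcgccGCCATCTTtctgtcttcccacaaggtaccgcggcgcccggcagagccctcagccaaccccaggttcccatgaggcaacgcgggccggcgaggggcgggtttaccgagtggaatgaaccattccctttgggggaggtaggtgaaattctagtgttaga

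The motifs were searched on both strands, so that a capital run may be the reverse complement of the letters given here. NRF1, a regulator of nuclear genes for mitochondria, has the core GCATGCGC, which 8 of the 67 promoters held (11.9%), against 5.22% of the 10339 promoters of tested genes. The ETS core CCGGAAG, which the mitochondrial regulator GABP can bind, was in 23 of the 67 (34.3%), against 16.97% of all. The YY1 core AAGATGGC was in 12 of the 67 (17.9%), against 4.26% of all. The hypoxia response core, ACGTG or GCGTG, was in 44 of the 67 (65.7%), close to the 61.4% of all promoters. The CACGTG in the Mrps18c window counts on both strands for ACGTG, and next to it stands an ETS core. By subunit, the NRF1 core was in 7 of 41 large and 1 of 26 small subunit promoters, the ETS core in 12 of 41 large and 11 of 26 small, the YY1 core in 6 of 41 large and 6 of 26 small, and the hypoxia response core in 28 of 41 large and 16 of 26 small. A match describes the letters of the window and does not show that a factor binds there. Mrpl46 and Mrps11 lie head to head on chromosome 7, with 42 bases between their deposited starts, and the RefSeq window of Mrpl46 held none of these motifs.

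The libraries held 130915724, 163695286 and 145889456 counts over all genes at 4% oxygen and 129849604, 124259152 and 139216400 at 20% oxygen. No member was rare: the lowest count of any of the 76 genes in any library was 1318 and the highest was 39254, so that the spread between libraries and not counting error set the precision. A list of 8 hypoxia genes, chosen with earlier results of these data known, served as a check. Of these, 8 had positive estimates, against 7085 of 14979 tested genes. For 7 of the 8 the groups did not overlap, with 4% oxygen above, against 6.33% of all tested genes. Their median log2 fold change was 1.89, and 0 were called in the main edgeR fit. Slc2a1, the glucose transporter GLUT1, had 212, 193 and 146 CPM (counts scaled to a common library size, with edgeR's TMM factors) at 4% oxygen and 67.4, 39.7 and 40.7 CPM at 20% oxygen. The estimated log2 fold change of 1.90 ± 0.29 (SE) had an adjusted edgeR p of 0.112, and of 0.0222 with the replicate number as a block. Pdk1, a kinase that holds pyruvate back from mitochondrial oxidation, had 122, 123 and 112 CPM at 4% oxygen and 23.1, 10.2 and 32.9 CPM at 20% oxygen, with a log2 fold change of 2.43 ± 0.38 and adjusted edgeR p of 0.112, or 0.0258 with the block. Of the 12 sympathoadrenal markers, 12 were tested, and their summed level was 7617 to 8461 CPM at 4% oxygen and 5162 to 6474 CPM at 20% oxygen, with Nefm below 1 CPM throughout; their part in the results on ribosomal protein genes was not tested. The summed markers of mesenchymal, immune and endothelial cells did not exceed 6.18 CPM in any library at 4% oxygen or 12.2 CPM in any at 20% oxygen, and Col1a2, Lum, Dcn, Ptprc, Aif1, Csf1r, Cdh5, Kdr and Tek stayed below 1 CPM.

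Levels between genes were compared per length, on the authors' RPKM values averaged over the 6 libraries. The median of the 76 genes was 28.3 RPKM, against 4.28 RPKM for all tested genes. The median was 26.9 RPKM for the large and 32.4 RPKM for the small subunit genes. Mrpl13, a bacterial-type protein of the large subunit, was the most abundant with 118 ± 10.6 RPKM at 4% oxygen and 150 ± 61.2 RPKM at 20% oxygen (SD, n = 3 each). Mrpl30, also a bacterial-type protein, came next with 100 ± 5.34 RPKM at 4% oxygen and 116 ± 11.5 RPKM at 20% oxygen. These neighbours in the order did not differ beyond their spread at 20% oxygen, where the SD of Mrpl13 exceeded the distance between them, whereas at 4% oxygen the distance exceeded both SDs. The order then ran through Mrpl28 at 91.4 RPKM, Mrpl23 at 87.4, Mrpl33 at 86.8 and Mrpl20 at 84.8 RPKM, which lay within each other's spread at 20% oxygen. At 4% oxygen the distance of Mrpl28 from Mrpl33 and from Mrpl20 exceeded the SDs of these genes. The most abundant genes with a small subunit name were Mrps18a at 64.5, Mrps6 at 62.6 and Mrps36 at 62.3 RPKM, again within each other's spread. Deposited lengths were 786 bases for Mrpl13, 691 for Mrpl30 and 466 for Mrpl33. In the GENCODE M21 annotation their exon bases number 7936, 3226 and 7326, so that their places depend on the length used. Exons of Mrpl13 share 330 bases with Mtbp on the opposite strand, so that its reads may be shared. A processed pseudogene 100% identical to a stretch of Mrpl23 may share its reads.

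At the low end stood Mrps25, a mitochondrion-specific small subunit protein, with 3.87 ± 0.756 RPKM at 4% oxygen and 3.86 ± 1.03 RPKM at 20% oxygen. Its deposited length is 6065 bases, and 69.8% of its exon bases overlap Nr2c2 on the opposite strand, so that its reads may be shared. A processed pseudogene 98.0% identical to a stretch of Mrps25 may also share its reads. Mrpl1, which in bacteria forms the flexible stalk by the exit site for tRNA, averaged 6.12 RPKM. Mrpl41, a mitochondrion-specific large subunit protein, averaged 6.75 RPKM, and Mrpl35 averaged 7.52 RPKM. The deposited length of Mrpl41 is 2423 bases, against 888 exon bases in the GENCODE M21 annotation, so that its place in the order depends on the length used. A processed pseudogene 97.8% identical to a stretch of Mrpl41 may share its reads. Of the small subunit genes, Mrps31 came next above Mrps25 at 14.2 RPKM, so that Mrpl1, Mrpl41 and Mrpl35 lay below all but 1 small subunit gene.

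No mitochondrial ribosomal protein gene passed the test between 4% and 20% oxygen. The edgeR quasi-likelihood test over 14979 genes called 0 of 76 members at an adjusted p under 0.05, with adjusted p from 0.996 to 0.997, and it called 0 genes in all (0%). At an unadjusted p under 0.05 in edgeR it gave 0 members lower and 0 higher at 4% oxygen, where all tested genes gave 1.42% lower and 3.01% higher. With the replicate number as a block, edgeR called 11 of 14979 genes and 0 members, and the lowest adjusted p of a member was 0.487. In that fit 1 member (1.32%) was lower at an unadjusted edgeR p under 0.05, against 2.86% of all tested genes. DESeq2 called 0 members, against 62 of 14720 genes (0.421%), and limma-voom called 0 members and 0% of genes. The estimates themselves were small and mostly negative. They were below 0 for 69 of 76 members (90.8%), against 52.7% of all tested genes, and their median was -0.24, against -0.03 for all tested genes. They ranged from -0.51 to 0.16, with standard errors of 0.23 to 0.42. The median moved to -0.05, with 49 of 76 below 0, when replicate 3 of 20% oxygen was left out. In a bulk sample, fewer cells that carry an RNA and less of it per cell cannot be told apart.

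**Figure D1:**
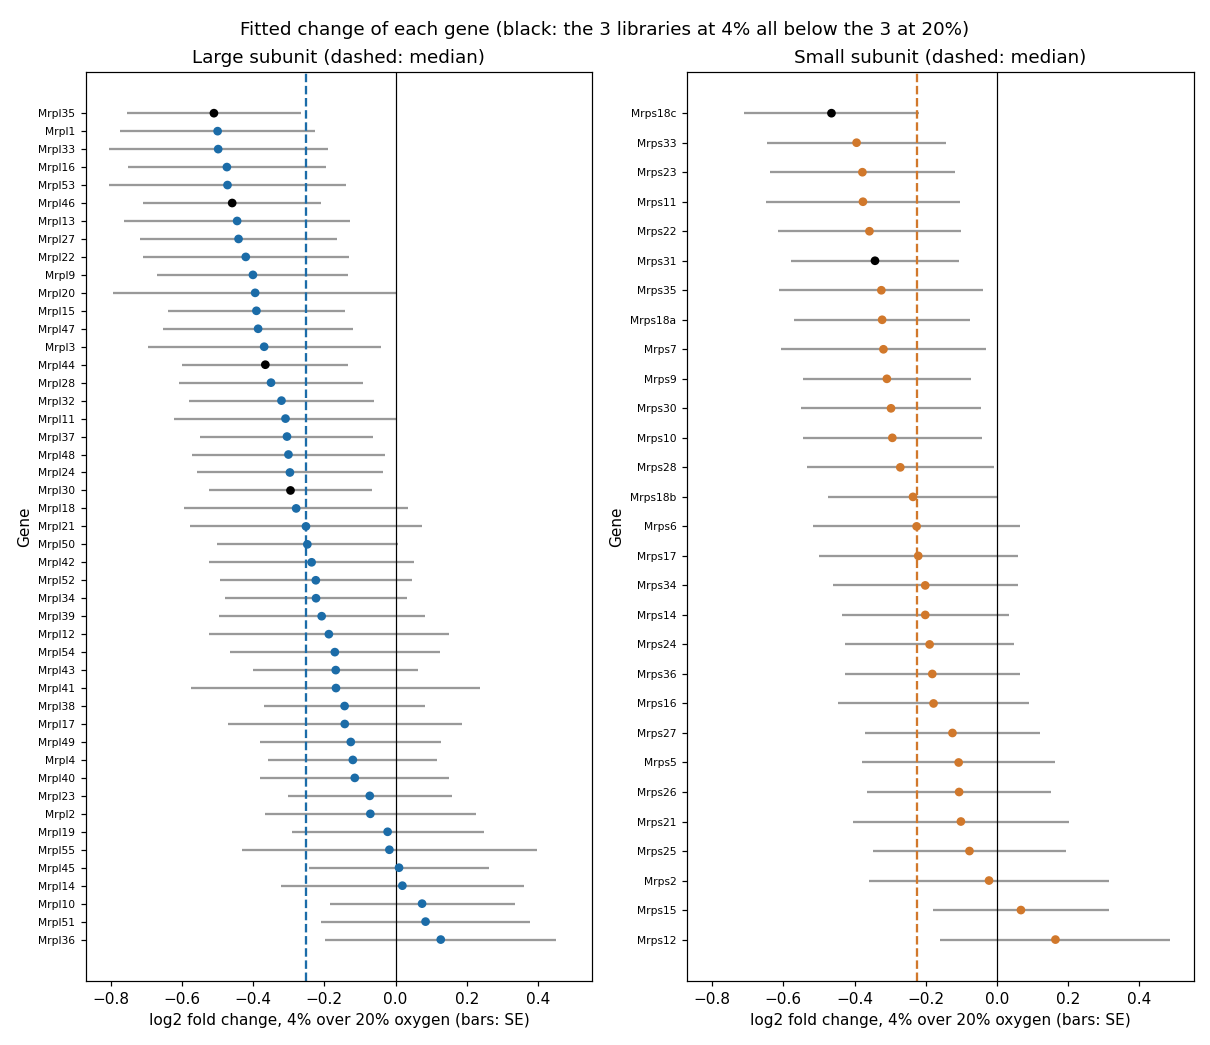
Log2 fold change of 4% over 20% oxygen for each of the 47 large and 29 small subunit genes, with bars for the standard error, dashed lines at the subunit medians of -0.25 and -0.23, and black for genes whose 3 libraries at 4% oxygen all lay below the 3 at 20% oxygen. Most points lie left of 0, and no gene passed the edgeR test.

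The large and small subunits had nearly equal estimates. The median log2 fold change was -0.25 for the 47 large subunit genes, of which 42 were below 0, and -0.23 for the 29 small subunit genes, of which 27 were below 0. The large minus small difference of these medians was -0.03. Summed over its genes, the large subunit had 2612, 2754 and 2469 CPM at 4% oxygen and 2389, 2983 and 3995 CPM at 20% oxygen. The small subunit had 1441, 1727 and 1412 CPM at 4% oxygen and 1435, 1828 and 2124 CPM at 20% oxygen. The libraries of the groups overlap for both subunits. The ratio of large to small was 1.81, 1.59 and 1.75 at 4% oxygen and 1.67, 1.63 and 1.88 at 20% oxygen. Its mean was 1.72 ± 0.112 at 4% oxygen and 1.73 ± 0.135 at 20% oxygen (SD, n = 3 each), a difference well inside the spread between libraries.

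**Figure D2:**
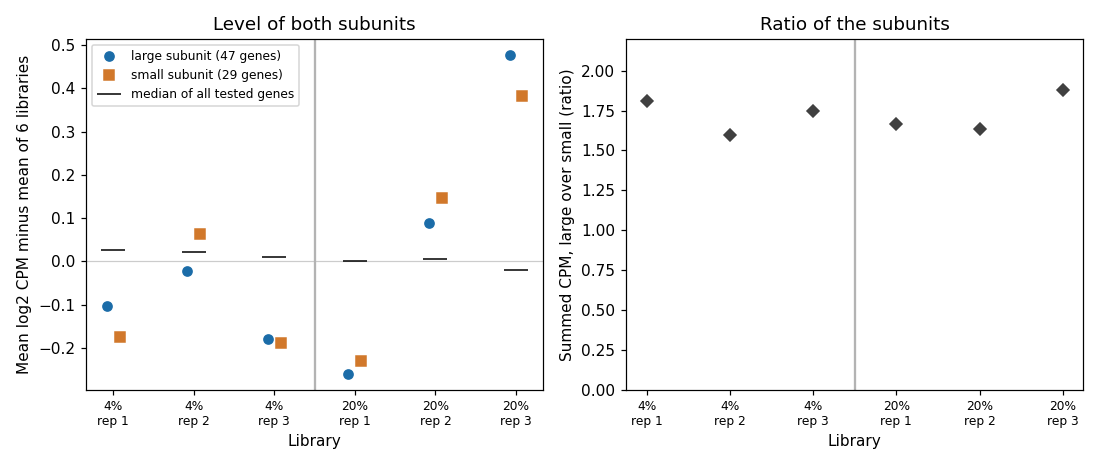
Left, mean over the genes of each subunit of log2 CPM minus its mean of the 6 libraries, by library, with the libraries at 4% oxygen left of those at 20%. Right, the ratio of summed CPM of the large to the small subunit, which stayed between 1.59 and 1.88. By the mean on the left, both subunits were lowest in replicate 1 and highest in replicate 3 of 20% oxygen.

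Structure-based work on the mitoribosome places a few proteins elsewhere than their symbols do. Mrps18a and Mrps30 sit in the large subunit, and Mrps36 has been assigned to the 2-oxoglutarate dehydrogenase complex. With Mrps18a and Mrps30 counted as large and Mrps36 left out, the median was -0.28 for 49 large subunit genes and -0.22 for 26 small subunit genes. Mrps36 itself had 70.9, 64.4 and 63.03 CPM at 4% oxygen and 58.3, 75.1 and 91.5 CPM at 20% oxygen, with a log2 fold change of -0.18 ± 0.25 (SE). A processed pseudogene 99.3% identical to a stretch of it may share its reads. Mrps30 had 92.4, 136 and 88.7 CPM at 4% oxygen and 123, 150 and 116 CPM at 20% oxygen, with a log2 fold change of -0.30 ± 0.25. The groups overlap for both genes.

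Among the 30 bacterial-type proteins of the large subunit, 27 had estimates below 0 and the median was -0.30. Mrpl35, counterpart of bacterial L35, had the smallest p of all 76 genes. It had 35.1, 42.5 and 30.9 CPM at 4% oxygen and 48.2, 59.8 and 46.4 CPM at 20% oxygen. All libraries at 4% oxygen were below all at 20% oxygen, and the log2 fold change of -0.51 ± 0.24 (SE) had an unadjusted edgeR p of 0.0603 and an adjusted p of 0.996. With the replicate number as a block, its log2 fold change was -0.51 with an unadjusted edgeR p of 0.0298 and an adjusted p of 0.487. The gene lies on chromosome 6, from 71812997 to 71823784 in mm10.

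Mrpl1 had 44.1, 33.4 and 23.4 CPM at 4% oxygen and 43.2, 47.5 and 52.03 CPM at 20% oxygen, where replicate 1 at 4% oxygen reached into the range of the other group. Its log2 fold change was -0.50 ± 0.27. Mrpl16, a protein that in bacteria lies near the tRNA sites of the large subunit, had 22.98, 26.8 and 23.4 CPM at 4% oxygen and 23.3, 34.9 and 43.5 CPM at 20% oxygen. Replicate 1 at 20% oxygen lay inside the range of the 4% libraries, and the log2 fold change was -0.47 ± 0.28. Mrpl13 had 165, 127 and 135 CPM at 4% oxygen and 119, 169 and 294 CPM at 20% oxygen. Its high mean at 20% oxygen came with replicate 3, while replicate 1 at 20% oxygen was its lowest library. The log2 fold change was -0.44 ± 0.32, and -0.01 without replicate 3 of 20% oxygen. Mrpl30 had 107, 109 and 102 CPM at 4% oxygen and 125, 112 and 155 CPM at 20% oxygen, groups that do not overlap, with a log2 fold change of -0.30 ± 0.23.

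Estimates above 0 were rare in the large subunit, at 5 of 47 genes, and small. Mrpl36, counterpart of the small bacterial protein L36, had 24.7, 32.3 and 29.2 CPM at 4% oxygen and 14.3, 30.5 and 34.1 CPM at 20% oxygen, with a log2 fold change of 0.13 ± 0.32. Mrpl10, which in bacteria anchors the stalk that recruits translation factors, had 68.7, 68.96 and 71.6 CPM at 4% oxygen and 46.7, 69.8 and 82.2 CPM at 20% oxygen, with a log2 fold change of 0.07 ± 0.26. Both genes were at their lowest in replicate 1 of 20% oxygen, and both turned negative without it, at -0.17 for Mrpl36 and -0.13 for Mrpl10. Mrpl14 had 75.3, 45.6 and 57.8 CPM at 4% oxygen and 51.1, 35.8 and 89.4 CPM at 20% oxygen, with an estimate of 0.02 that turned to -0.01 under DESeq2's size factors in edgeR. Mrpl12, the stalk protein that has also been reported to bind the mitochondrial RNA polymerase, had 98.5, 120 and 84.8 CPM at 4% oxygen and 60.7, 118 and 166 CPM at 20% oxygen, with a log2 fold change of -0.19 ± 0.34 that was 0.17 without replicate 3 of 20% oxygen.

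The 17 mitochondrion-specific proteins of the large subunit had a median of -0.21, with 15 below 0. Mrpl46 had 44.4, 50.3 and 35.1 CPM at 4% oxygen and 53.3, 54.03 and 71.02 CPM at 20% oxygen. Its groups do not overlap, and its log2 fold change was -0.46 ± 0.25, with an unadjusted edgeR p of 0.0934. Its head-to-head neighbour Mrps11, a bacterial-type small subunit protein named here for its position, had 30.8, 35.1 and 32.5 CPM at 4% oxygen and 29.9, 42.2 and 55.7 CPM at 20% oxygen, with overlapping groups and a log2 fold change of -0.38 ± 0.27. In the GENCODE M21 annotation the exons of this pair share 173 bases on opposite strands, whereas their deposited starts lie 42 bases apart without overlap. Whether counting used strand is not given in the sources used here. Mrpl51 had 56.99, 60.4 and 66.1 CPM at 4% oxygen and 35.7, 58.2 and 79.2 CPM at 20% oxygen, with a log2 fold change of 0.08 ± 0.29, or -0.17 without replicate 1 of 20% oxygen.

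The 17 bacterial-type small subunit proteins had a median of -0.22, with 15 below 0. Mrps18c had 26.5, 25.1 and 20.9 CPM at 4% oxygen and 28.2, 33.5 and 38.4 CPM at 20% oxygen. All libraries at 4% oxygen were below all at 20% oxygen, with a log2 fold change of -0.46 ± 0.25 and an unadjusted edgeR p of 0.0856. It is 1 of 3 mammalian proteins related to bacterial S18, and its relatives had estimates of the same sign. Mrps18a had 73.4, 91.5 and 69.7 CPM at 4% oxygen and 77.3, 105 and 111 CPM at 20% oxygen, with a log2 fold change of -0.32 ± 0.25. Mrps18b had 65.5, 91.2 and 70.6 CPM at 4% oxygen and 78.3, 95.2 and 94.3 CPM at 20% oxygen, with a log2 fold change of -0.24 ± 0.24. Of the 3 relatives, Mrps18c was the least abundant per length and Mrps18a the most, at 36.1 and 64.5 RPKM over the 6 libraries, with Mrps18b between them at 49.8 RPKM. An antisense gene overlaps 30.5% of the exon bases of Mrps18b. A processed pseudogene 99.8% identical to a stretch of Mrps18b may also share its reads.

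Mrps12, whose bacterial counterpart lies at the decoding centre, had the highest positive estimate of all 76 genes. It had 15.96, 21.8 and 21.5 CPM at 4% oxygen and 10.2, 19.99 and 22.7 CPM at 20% oxygen. The groups overlap, and the log2 fold change was 0.16 ± 0.32, or -0.11 without replicate 1 of 20% oxygen. Mrps15, a protein that in bacteria binds the small ribosomal RNA early in assembly, had 31.8, 36.5 and 39.1 CPM at 4% oxygen and 27.1, 36.5 and 38.9 CPM at 20% oxygen, with a log2 fold change of 0.07 ± 0.25. These were the only small subunit genes with an estimate above 0. Mrps6, one of the most abundant small subunit genes, had 64.8, 87.5 and 61.6 CPM at 4% oxygen and 56.2, 82.3 and 112 CPM at 20% oxygen, with a log2 fold change of -0.23 ± 0.29.

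The 9 mitochondrion-specific small subunit proteins all had estimates below 0, with a median of -0.32. Mrps33 had 48.8, 45.4 and 43.98 CPM at 4% oxygen and 55.7, 48.3 and 77.7 CPM at 20% oxygen, with a log2 fold change of -0.39 ± 0.25. Only replicate 1 at 4% oxygen, which lay just above replicate 2 at 20% oxygen, kept its groups from separating. A processed pseudogene 99.7% identical to a stretch of Mrps33 may share its reads. Mrps23 had 47.5, 55.5 and 37.3 CPM at 4% oxygen and 57.5, 50.5 and 74.1 CPM at 20% oxygen, with a log2 fold change of -0.38 ± 0.26. Mrps31 had 27.2, 34.5 and 29.6 CPM at 4% oxygen and 35.02, 38.2 and 42.6 CPM at 20% oxygen, groups that do not overlap, with a log2 fold change of -0.34 ± 0.24. Mrps25 had 31.4, 42.8 and 33.4 CPM at 4% oxygen and 26.7, 43.4 and 43.4 CPM at 20% oxygen, with a log2 fold change of -0.08 ± 0.27.

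In all, 6 of 76 members (7.89%) had groups that did not overlap with 4% oxygen below, against 3.72% of all tested genes, and 0 had groups that did not overlap with 4% oxygen above, against 6.33%. They were Mrpl30, Mrpl35, Mrpl44, Mrpl46, Mrps18c and Mrps31. Mrpl44, a mitochondrion-specific large subunit protein related to ribonuclease III and named here after its values were seen, had 33.8, 43.4 and 34.2 CPM at 4% oxygen and 50.1, 45.7 and 47.8 CPM at 20% oxygen. Its log2 fold change was -0.37 ± 0.23.

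The libraries at 20% oxygen differed among themselves more than the groups did. Of the 76 members, 60 (78.9%) were at their highest in replicate 3 of 20% oxygen, against 16.97% of all tested genes, and 31 (40.8%) were at their lowest in replicate 1 of 20% oxygen, against 25.7% of all tested genes. The mean log2 deviation of the large subunit genes from their 6-library means was -0.10, -0.02 and -0.18 at 4% oxygen and -0.26, 0.09 and 0.48 at 20% oxygen. For the small subunit genes it was -0.17, 0.06 and -0.19 at 4% oxygen and -0.23, 0.15 and 0.38 at 20% oxygen. By this mean, both subunits had their lowest and their highest library within the 20% oxygen group, while the 4% libraries lay between them. By summed level, the small subunit was lowest in replicate 3 of 4% oxygen, at 1412 CPM, just below 1435 CPM in replicate 1 of 20% oxygen.

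**Figure D3:**
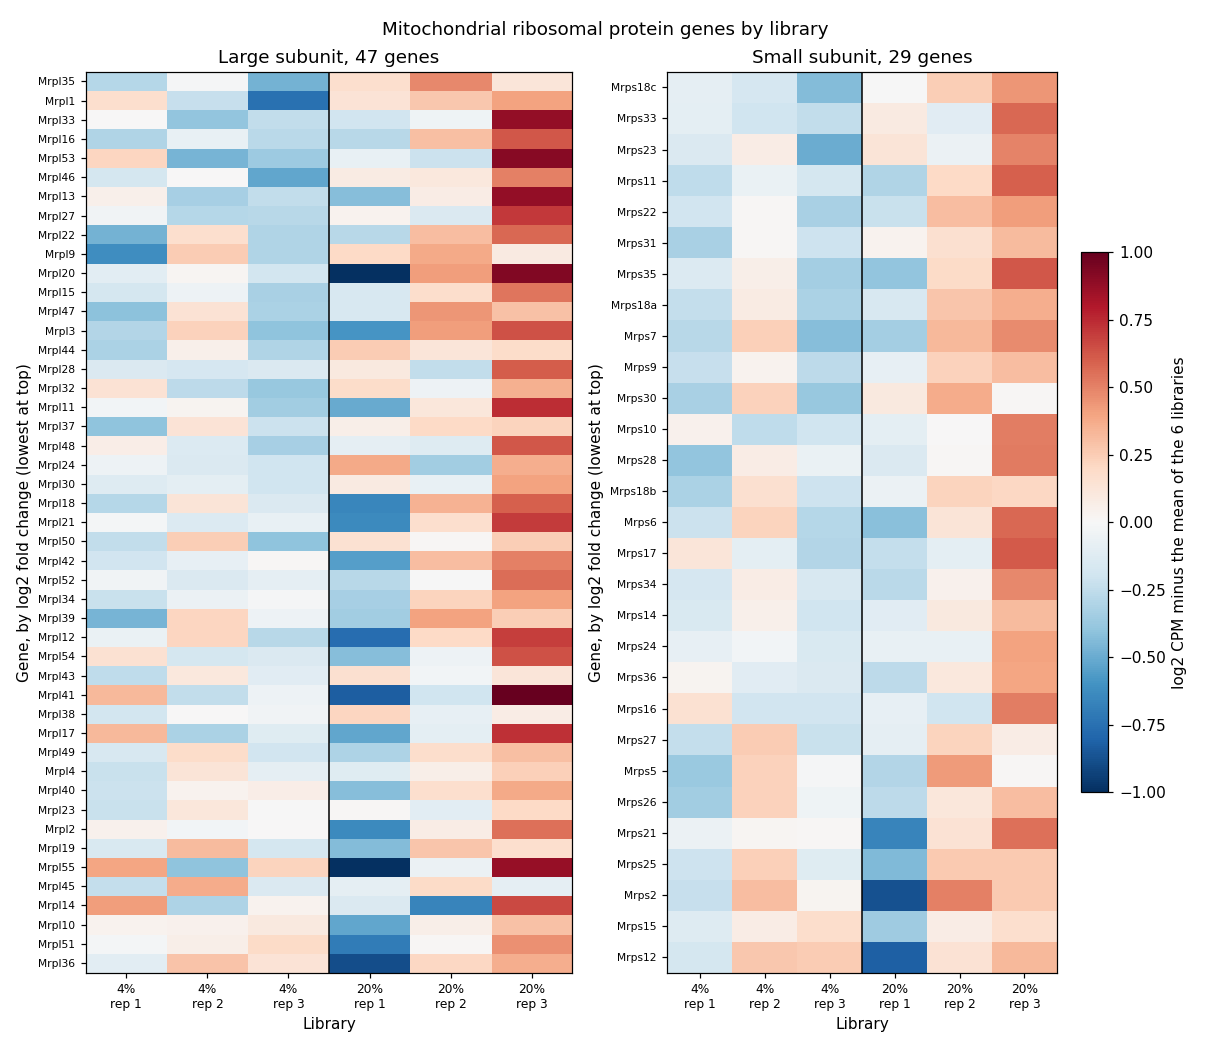
Log2 CPM minus the mean of the 6 libraries for each gene (rows) in each library (columns, 4% oxygen left of 20%), large subunit left and small subunit right, ordered by log2 fold change. Replicate 3 of 20% oxygen was the highest library for 60 of the 76 genes.

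The genes that varied most between libraries of a group were large subunit genes. Mrpl20, counterpart of bacterial L20, had 76.4, 83.3 and 72.6 CPM at 4% oxygen and 38.96, 110 and 156 CPM at 20% oxygen, and the SD of log2 CPM within groups was 0.740. Its log2 fold change was -0.39 ± 0.40, which was -0.78 without replicate 1 and 0.06 without replicate 3 of 20% oxygen. Mrpl55 had 32.3, 18.5 and 28.6 CPM at 4% oxygen and 12.1, 23.5 and 44.7 CPM at 20% oxygen, with a within-group SD of 0.731. Its estimate of -0.02 ± 0.42 was 0.58 without replicate 3 of 20% oxygen. Mrpl41 had 30.2, 20.3 and 23.4 CPM at 4% oxygen and 13.7, 21.1 and 48.2 CPM at 20% oxygen, with a within-group SD of 0.684 and a log2 fold change of -0.17 ± 0.41, which was 0.51 without replicate 3 of 20% oxygen. All 3 genes had their lowest and highest library at 20% oxygen.

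The size of the shift followed the libraries that were used. Without replicate 3 of 20% oxygen, the median of the 76 genes was -0.05 with 49 below 0, and it was -0.03 for the large and -0.08 for the small subunit. Without replicate 1 of 20% oxygen, the median was -0.39 with 76 of 76 below 0, and it was -0.40 for the large and -0.37 for the small subunit. In that fit 14 members (18.4%) had an unadjusted edgeR p under 0.05, all of them lower at 4% oxygen, against 3.01% of the genes tested, and none passed adjustment. The smallest unadjusted p among them was 0.00718 for Mrpl20, with an adjusted p of 0.354. Leaving out any other library gave medians between -0.30 and -0.21.

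**Figure D4:**
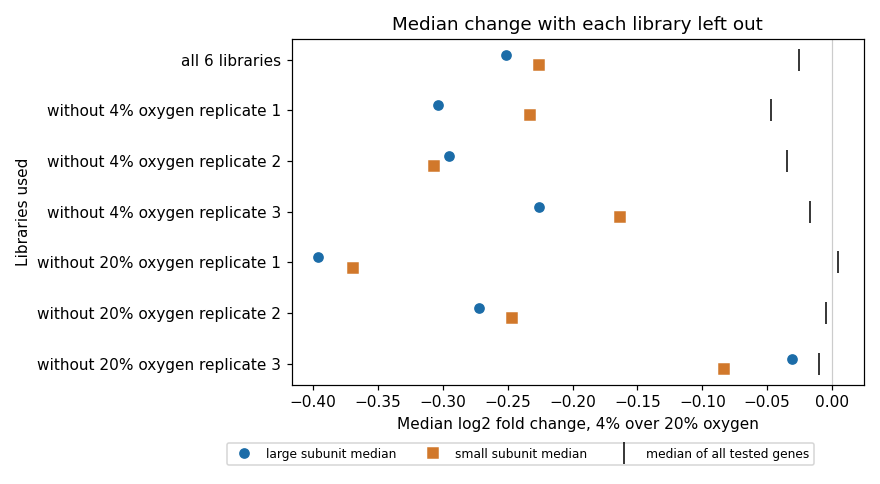
Median log2 fold change of 4% over 20% oxygen of the large and the small subunit genes with all 6 libraries and with each library left out in turn, with ticks for the median of all tested genes. Both medians lie nearest 0 without replicate 3 of 20% oxygen, at -0.03 and -0.08, and farthest from it without replicate 1 of 20% oxygen, at -0.40 and -0.37.

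Taken by replicate number, the difference of 4% minus 20% oxygen was largest between the libraries numbered 3. Its median over the 76 genes was 0.05 on the log2 scale for number 1, with 35 below 0, -0.10 for number 2, with 52 below 0, and -0.62 for number 3, with 75 below 0. The corresponding medians of all tested genes were 0.01, 0.02 and 0.02. The large subunit medians were 0.15, -0.12 and -0.65, and the small subunit medians were 0.03, -0.08 and -0.57. The subunits therefore had the same sign in each pair, and both medians fell from number 1 to number 3.

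Gene length moved with this pattern in replicate 3 of 20% oxygen, but not in every library. The members are short: their median deposited length was 1053 bases, against 2706 bases for all tested genes, and 60 of 76 fell in the shortest quartile of tested genes, at up to 1670.5 bases. In replicate 3 of 20% oxygen the median deviation of all tested genes was 0.23 in the shortest quartile, 0.03 and -0.08 in the middle quartiles and -0.17 in the longest. The members of the shortest quartile had a median of 0.49 there, and the 5 members in the longest quartile had 0.40. Other libraries differed in the shortest quartile. In replicate 1, all tested genes and members had 0.10 and -0.16 at 4% oxygen, and 0.00 and -0.21 at 20% oxygen. In replicate 2 they had -0.07 and 0.015 at 4% oxygen, and -0.07 and 0.11 at 20% oxygen. In replicate 3 of 4% oxygen they had -0.09 and -0.20. The median log2 fold change of all tested genes ran -0.11, -0.04, 0.00 and 0.06 from the shortest to the longest quartile, and that of the members was -0.29, -0.13, -0.41 and -0.14, where the third quartile held 2 members and the fourth 5. With a length trend removed from each library, an alternative added after the data were seen, the median of the members was -0.19 with 66 below 0. With the same trend removed and replicate 3 of 20% oxygen left out, it was -0.11 with 54 below 0. Beyond these fits the part of length in the result was not tested.

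**Figure D5:**
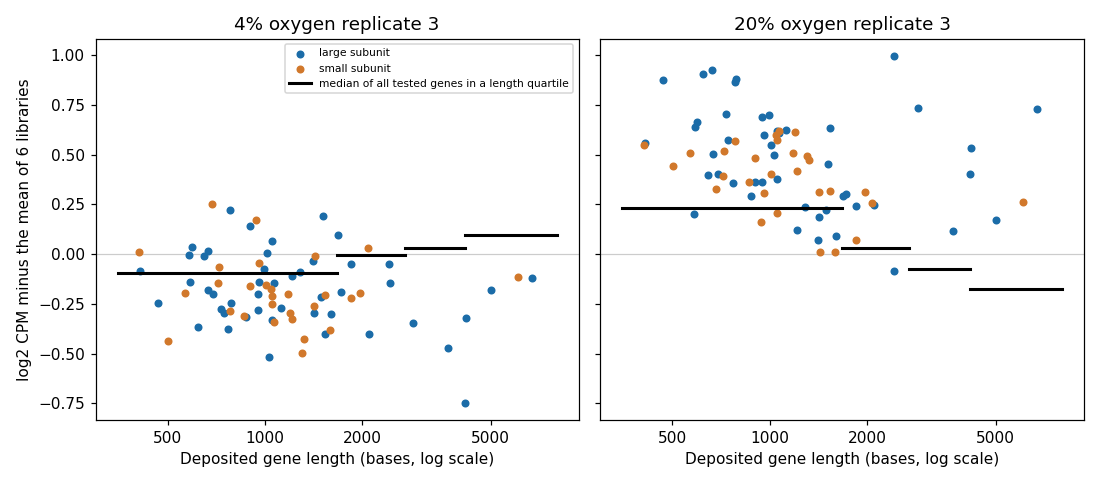
Log2 CPM minus the mean of the 6 libraries against deposited gene length (bases, log scale) for the large and small subunit genes in replicate 3 of 4% oxygen (left) and replicate 3 of 20% oxygen (right), with black lines for the median of all tested genes in each quartile of lengths. In replicate 3 of 20% oxygen the black lines fall from 0.23 in the shortest to -0.17 in the longest quartile, and most members lie above them.

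Mitochondrial ribosomal proteins that carry other names behaved alike in sign. All 7 on the list (Dap3, Ptcd3, Chchd1, Aurkaip1, Gadd45gip1, Ict1 and Mrp63) had estimates below 0, with a median of -0.24 and 0 called. Chchd1, a small subunit protein, had 74.5, 60.9 and 54.02 CPM at 4% oxygen and 67.9, 79.3 and 127 CPM at 20% oxygen, with a log2 fold change of -0.53 ± 0.28. Ptcd3, a pentatricopeptide repeat protein of the small subunit, had 157, 148 and 122 CPM at 4% oxygen and 117, 184 and 224 CPM at 20% oxygen, with a log2 fold change of -0.30 ± 0.27. Both were at their highest in replicate 3 of 20% oxygen, and without it the median of the 7 was 0.04.

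Lists of genes that work with the mitoribosome had medians nearer to the -0.03 of all tested genes. Of 17 tested translation factors, 14 had estimates below 0 and the median was -0.07, with 0 called; without replicate 2 of 20% oxygen the median was 0.04. Mrrf, which recycles the ribosome after termination, had 19.6, 21.1 and 17.7 CPM at 4% oxygen and 30.3, 20.3 and 26.6 CPM at 20% oxygen, with a log2 fold change of -0.40 ± 0.26. Mtif3, an initiation factor, had 28.6, 32.7 and 22.4 CPM at 4% oxygen and 47.3, 29.7 and 32.8 CPM at 20% oxygen, with a log2 fold change of -0.39 ± 0.27. Mrrf, Mtif3 and Oxa1l were at their highest in replicate 1 of 20% oxygen, the library with the lowest summed level of ribosomal protein genes. Mtif2, Gfm1, Gfm2, Mtrf1, Mtfmt, Guf1, Lrpprc, Slirp and Taco1 were at their lowest in that library. The remaining factors on the list were at neither. Of all tested genes, 24.8% were at their highest and 25.7% at their lowest in that library.

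Of 28 genes for assembly and ribosomal RNA modification, 22 had estimates below 0 and the median was -0.10, with 0 called. Mrm1, a methyltransferase of the large ribosomal RNA, had 28.3, 30.3 and 28.9 CPM at 4% oxygen and 15.9, 18.3 and 25.5 CPM at 20% oxygen. Its groups do not overlap, and its log2 fold change of 0.55 ± 0.26 had an unadjusted edgeR p of 0.0576. Gtpbp10, a GTPase of large subunit assembly, had 29.6, 37.3 and 29.8 CPM at 4% oxygen and 29.7, 48.1 and 60.8 CPM at 20% oxygen, with a log2 fold change of -0.52 ± 0.29.

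Of 21 genes for mitochondrial DNA maintenance and transcription, 11 had estimates below 0 and the median was -0.12, or 0.015 without replicate 2 of 20% oxygen. Of these, 0 were called and 2 (9.52%) were lower at an unadjusted p under 0.05 in edgeR, against 1.42% of all tested genes. Tfb2m, a factor that starts mitochondrial transcription, had 22.6, 28.98 and 20.2 CPM at 4% oxygen and 49.1, 38.9 and 29.1 CPM at 20% oxygen, with a log2 fold change of -0.71 ± 0.28, an unadjusted edgeR p of 0.0258 and an adjusted p of 0.996. Its groups do not overlap, though the nearest libraries were 28.98 CPM at 4% oxygen and 29.1 CPM at 20% oxygen. Rg9mtd1, listed as Trmt10c and a subunit of mitochondrial RNase P, had 34.02, 48.8 and 31.7 CPM at 4% oxygen and 72.3, 63.8 and 43.99 CPM at 20% oxygen, with a log2 fold change of -0.65 ± 0.28 and an unadjusted edgeR p of 0.0383. For both genes the highest library was replicate 1 of 20% oxygen. Tfam, which packages mitochondrial DNA and was named after its values were seen, had 74.2, 82.4 and 76.9 CPM at 4% oxygen and 99.9, 96.8 and 106 CPM at 20% oxygen, groups that do not overlap, with a log2 fold change of -0.38 ± 0.22. Lonp1, also named after its values were seen, went the other way. It had 335, 475 and 406 CPM at 4% oxygen and 362, 283 and 223 CPM at 20% oxygen. Its groups overlap, and its log2 fold change was 0.49 ± 0.25. Estimates above 0 were found for 10 of the 21 genes.

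Of 11 tested regulators of mitochondrial biogenesis, 8 had estimates below 0 and the median was -0.11, with 0 called. Gabpa, the DNA-binding subunit of GABP, had 27.5, 39.5 and 33.2 CPM at 4% oxygen and 50.7, 46.1 and 34.2 CPM at 20% oxygen, with a log2 fold change of -0.39 ± 0.26. Myc, a growth regulator, had 86.1, 146 and 117 CPM at 4% oxygen and 260, 123 and 111 CPM at 20% oxygen, with a log2 fold change of -0.50 ± 0.34. Its mean at 20% oxygen rested on replicate 1, and the other 20% libraries lay inside the range at 4% oxygen.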

How the data were processed

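RNA of N1E115 cells was sequenced as 3 libraries at 4% and 3 at 20% oxygen. The labels name 2 kits that disagree, a stranded one for total RNA depleted of ribosomal RNA and one for mRNA. Per the submitters' processing notes, the tools were Bowtie, HTSeq and TopHat2 2.0.6 and the build was mm10. Annotation and strand setting, not given in the sources used here, remain unknown. The authors deposited a raw count and an RPKM value per gene and library; per the file headers the counts are gene counts, and 100% of them were even. The RPKM values deposited by the authors are per kilobase of the deposited length and relative to a library total of which genes held 57.6% to 67.8%. No sample column was left unused, and no row lacked a name.

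Counts were tested in R 4.3.3 with edgeR 4.0.16 (filterByExpr, minimum count 10 and total 15; TMM; quasi-likelihood test, two-sided, no covariate), with Benjamini-Hochberg adjustment over 14979 genes and a threshold of 0.05. The script was tested on simulated data. The common biological coefficient of variation was 0.359. Fold changes are 4% over 20% oxygen on the log2 scale, and standard errors come from the F statistic. Library totals, 124259152 to 163695286 counts, leave replicate spread as the limit of precision. DESeq2 1.42.0, limma 3.58.1 (voom), other scaling, no filter, a replicate block, subunits by structure and leaving out each library were tried. Trends on length and GC content were removed as alternatives added after seeing the data.

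Over the tested genes, same-numbered libraries deviated together from their group means, with correlations of 0.285 for number 1, 0.465 for number 2 and 0.233 for number 3, all over 0.1, so the numbers were taken to pair the libraries, although the labels do not say what a number marks. The main test did not use this pairing. Its standard errors and p-values are unpaired, and the block is given as an alternative. Members, gene lists and tests were chosen with earlier results of these data known. Of 94 pathway list entries 93 matched a row. Genes named are, in each subunit, the 4 with the smallest p in each direction, the 2 highest and 2 lowest in mean RPKM, the 3 members with the largest spread within groups, Mrps18a, Mrps18b, Mrps18c, Mrps30, Mrps36 and Mrpl12, and the 2 of each list with the smallest p. Other genes were named after their values were seen. In GENCODE M21, 32 of 76 members overlap an exon of another gene, 17 of them over at least 10% of their exon bases, and 11 have a copy of at least 97% identity over at least 25% of a transcript (blastn 2.17.0). None of these copies is a row of the table, and such genes may share reads. Of the genes named, Mrpl10, Mrpl12, Mrpl14, Mrps6 and Mrps18c also overlap another gene over at least 10% of their exon bases. No protein sequences were used here. A further marker list is not reported here.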

Additional observations from a re-analysis of the deposited data

How the results depend on the processing

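The number of members called was 0 under every alternative that was run. Of 716 alternative values, 671 kept direction and side of the threshold, or stayed within the spread between libraries. This count is lenient and does not measure stability. For medians the spread was wide enough to take in -0.03 and -0.08, the subunit medians without replicate 3 of 20% oxygen. A gene far from the threshold was counted as kept whenever its sign held. The variation between libraries, and not depth, limits what 3 libraries a group can resolve (common biological coefficient of variation 0.359). The number of members lower at an unadjusted p under 0.05 was 0, and 1 under DESeq2's size factors in edgeR, 1 with the length trend removed and 0 to 14 with each library left out, where 14 came without replicate 1 of 20% oxygen. With the replicate block this number was 1 (Mrpl35), and the medians were -0.20 for the large and -0.19 for the small subunit. The block also brought Slc2a1 and Pdk1 past the threshold (adjusted edgeR p of 0.0222 and 0.0258), as did no filter and DESeq2. The block changed no other call among the genes named by rule. With each library left out, the large subunit median ran from -0.40 to -0.03, the small from -0.37 to -0.08 and their difference from -0.07 to 0.05. The median of translation factors ran from -0.19 to 0.04. The median of mitoribosomal proteins with other names ran from -0.41 to 0.036, and that of mitochondrial DNA maintenance and transcription from -0.23 to 0.015, the upper end without replicate 2 of 20% oxygen.

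The sign of 12 named members changed under some alternative, and for each the estimate was smaller than its standard error. With each library left out, estimates ran from -0.17 to 0.36 for Mrpl36, from -0.13 to 0.26 for Mrpl10, from -0.17 to 0.38 for Mrpl51, from -0.24 to 0.46 for Mrpl14, from -0.49 to 0.51 for Mrpl41 and from -0.11 to 0.39 for Mrps12. They ran from -0.076 to 0.17 for Mrps15, from -0.44 to 0.040 for Mrps6, from -0.28 to 0.034 for Mrps25, from -0.78 to 0.058 for Mrpl20, from -0.37 to 0.58 for Mrpl55 and from -0.49 to 0.17 for Mrpl12. Mrpl14 was at -0.00912 under DESeq2's size factors in edgeR and -0.00841 in DESeq2. With the GC trend removed, Mrpl14 was at -0.18, Mrps12 at -0.00454 and Mrps15 at -0.074. Under limma-voom, Mrpl41 was at 0.00816 and Mrpl55 at 0.14, and with the replicate block Mrpl41 was at 0.010 and Mrpl55 at 0.12. With the length trend removed, Mrpl55 was at 0.12. With that trend removed and replicate 3 of 20% oxygen left out, Mrpl41 was at 0.48, Mrps25 at 0.010, Mrpl55 at 0.49 and Mrpl12 at 0.12. The cause was not tested.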
